A study of Mus musculus with 10 samples.

Results

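The astrocyte marker genes described here are 30 genes widely used to recognise astrocytes, taken by symbol from a list of names, and all 30 were found among the 32531 gene rows of the count tables. It includes the glutamate transporters Slc1a2 and Slc1a3, the water channel Aqp4, the filament protein Gfap, the gap junction proteins Gja1 and Gjb6 and secreted proteins such as Apoe, Clu and Sparcl1. Astrocytes are the glial cells that clear glutamate and GABA from synapses, buffer potassium and water, are coupled to one another by gap junctions and supply neurons with glutamine and lipids. In the habenula, as elsewhere in the brain, astrocytes surround the synapses of neurons, and some of these genes are also transcribed in neurons. All 30 also passed the filter on low counts that left 16250 genes for testing.

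RNA bound to tagged ribosomes was sequenced from the medial habenula of adult mice of the line Chat-TRAP DW167. This is a BAC transgenic line in which the ribosomal protein Rpl10a carries EGFP in cells that express choline acetyltransferase (Chat), so that affinity purification of EGFP-bearing ribosomes (TRAP) is meant to recover RNA of cholinergic neurons and not of astrocytes. The left and the right medial habenula were taken and processed apart, which gave 5 left and 5 right libraries of the same genotype. All 10 are pull-downs, no treatment is named, no unpurified input was used here, and the labels do not say how many animals a library holds or whether libraries came from separate animals. The p-values therefore measure the spread between these libraries, which may be partly technical.

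Levels are CPM, the reads of a gene scaled to the library's total of gene reads, and the libraries held 42488448 to 67942836 gene reads. Replicates 1 and 5 of both sides stood apart from replicates 2 to 4. Within a side, replicates 1 and 5 were also unusually alike: over genes with a mean of 20 to 100 reads, chi-square per degree of freedom was 1.58 between left replicates 1 and 5 and 1.17 between right replicates 1 and 5. It was 4.87 to 23.8 for the other 18 pairs of libraries within a side. As both pairs still differed by more than sampling noise, all 10 libraries were kept as separate, and results are also given with each pair summed or left out. Replicates 1 and 5 were contrasted with replicates 2 to 4 because earlier results of these data, among them levels of astrocyte genes, had shown that split, so it is a description here and was not tested. The share of uniquely placed reads that fell in no gene was 13.6% to 14.96% in replicates 1 and 5 against 15.1% to 18.9% in replicates 2 to 4.

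Promoter windows are shown for 2 members with unlike levels: Slc1a3, with the widest range in the set, and Agt, one of the 4 genes whose levels overlapped between replicates 1 and 5 and replicates 2 to 4. RefSeq (GRCm38.p6) gave at least 1 start site for 25 of the 30 genes, 33 windows in all, and the 250 bases before the start were searched on both strands for 3 short motifs. These were TTGGC, the half-site of nuclear factor I proteins, ACAAT, the core bound by SOX proteins, and TATAAA, the TATA box. Capitals mark their matches on either strand. The first window is chr15:8710808-8711057 and the second chr8:124569707-124569956, both on the minus strand.
Slc1a3: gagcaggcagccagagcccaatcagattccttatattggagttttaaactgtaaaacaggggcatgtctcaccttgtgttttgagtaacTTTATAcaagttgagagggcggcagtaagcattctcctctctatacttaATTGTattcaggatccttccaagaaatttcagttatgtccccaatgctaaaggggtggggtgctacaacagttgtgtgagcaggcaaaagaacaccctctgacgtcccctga
Agt: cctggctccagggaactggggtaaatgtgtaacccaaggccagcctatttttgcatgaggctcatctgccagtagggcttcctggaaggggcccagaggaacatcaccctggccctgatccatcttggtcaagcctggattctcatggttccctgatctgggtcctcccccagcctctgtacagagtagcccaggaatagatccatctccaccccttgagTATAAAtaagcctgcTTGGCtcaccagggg
Slc1a3 held 1 match to ACAAT and 1 to TATAAA, both on the strand opposite to the one shown. Agt held 1 match to TATAAA and 1 to TTGGC, both on the strand shown. Over all windows of the set, 16 of 33 (48.5%) held TTGGC, against 41.5% of all 32851 windows of the table. ACAAT was found in 4 of 33 (12.1%) against 27.7%, and TATAAA in 6 of 33 (18.2%) against 12.4%. A match is a run of letters, not a bound site.

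**Figure D1:**
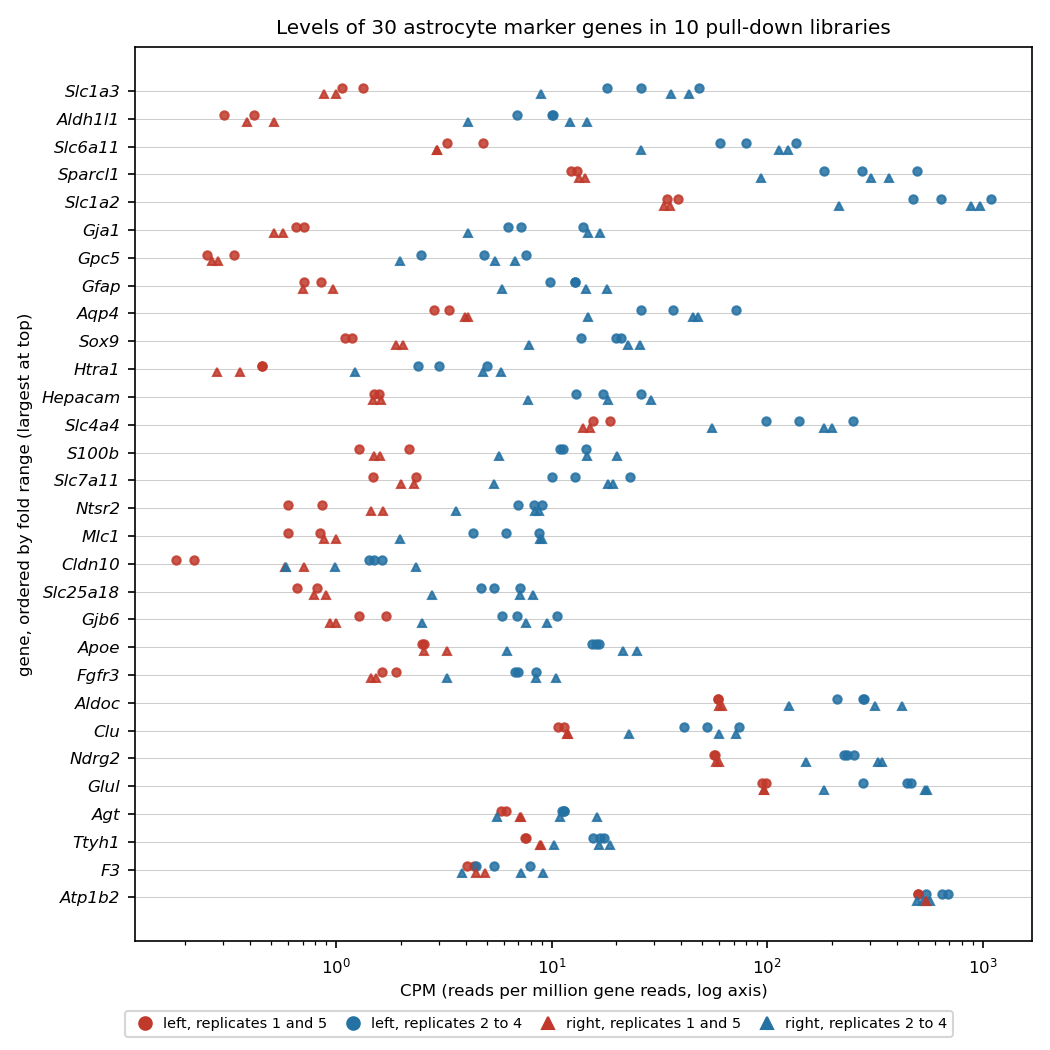
CPM of each of the 30 genes (log axis) in 10 libraries, with circles for left and triangles for right libraries, red for replicates 1 and 5 and blue for replicates 2 to 4. For 26 genes every blue point lies to the right of every red point, from Slc1a3 with a 54.9-fold range at the top down to Ttyh1, while Cldn10, Agt, F3 and Atp1b2 overlap.

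Nearly all of the set was low together in replicates 1 and 5 and high together in replicates 2 to 4, on both sides. For 26 of the 30 genes the lowest of the 6 libraries of replicates 2 to 4 exceeded the highest of the 4 libraries of replicates 1 and 5, and for none did the opposite hold. The ranges overlapped for 4 genes, Atp1b2, F3, Agt and Cldn10. Among all 16250 genes tested, 24.3% were higher in replicates 2 to 4 without overlap and 22.9% were lower. The fold range, the highest over the lowest CPM among 10 libraries, had a median of 15.4 in the set and 2.07 over all genes tested. It was at least 10 for 20 of the 30 genes and for 12.6% of all genes tested. These are bulk pull-downs that are meant to leave out astrocyte RNA. Fewer astrocytes, less RNA per astrocyte and less astrocyte RNA carried through the purification cannot be told apart in them.

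The 4 genes of transmitter uptake and glutamine synthesis had the highest median fold range of the 7 roles, 39.9. Slc1a2, the main glutamate transporter of astrocytes, stood at 38.5, 473, 638, 1097 and 34.4 CPM in left replicates 1 to 5 and at 35.5, 215, 882, 976 and 33.1 CPM in right replicates 1 to 5. The 4 low libraries lay within 33.1 to 38.5 CPM, and right replicate 2 was the lowest of the other 6. Slc1a3, the second astrocytic glutamate transporter, stood at 1.33, 18.2, 26.02, 48.5 and 1.06 CPM in left replicates 1 to 5 and at 0.998, 8.98, 36.01, 43.3 and 0.883 CPM in right replicates 1 to 5, a 54.9-fold range. Slc6a11, a GABA transporter of astrocytes, stood at 4.79, 60.4, 80.1, 137 and 3.28 CPM in left replicates 1 to 5 and at 2.93, 26.0, 125, 113 and 2.93 CPM in right replicates 1 to 5, a 46.7-fold range. In both genes, as in Slc1a2, right replicate 2 lay between the 4 low libraries and the other 5. Glul, the glutamine synthetase that turns the glutamate taken up into glutamine, had a much higher floor and stood at 98.4, 279, 448, 463 and 94.6 CPM in left replicates 1 to 5 and at 97.02, 184, 549, 542 and 96.96 CPM in right replicates 1 to 5. Its fold range was only 5.81, although its groups did not overlap either.

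Junction and adhesion genes separated as well, with 1 exception. Gja1, the main connexin of astrocytic gap junctions, stood at 0.708, 6.31, 7.25, 13.9 and 0.6495 CPM in left replicates 1 to 5 and at 0.566, 4.08, 14.7, 16.7 and 0.515 CPM in right replicates 1 to 5. Gjb6, the second astrocytic connexin, stood at 1.703, 5.89, 6.89, 10.6 and 1.28 CPM in left replicates 1 to 5 and at 0.998, 2.501, 9.56, 7.602 and 0.942 CPM in right replicates 1 to 5. The fold range was 32.4 for Gja1 and 11.2 for Gjb6. Hepacam, a cell adhesion protein of astrocytes, was at 1.49 to 1.62 CPM in replicates 1 and 5 and 7.78 to 28.8 CPM in replicates 2 to 4. Mlc1, a membrane protein that is found with Hepacam at astrocyte contacts, was at 0.595 to 1.001 CPM and 1.98 to 8.99 CPM in these libraries. Cldn10, a claudin, was the exception, with 0.219, 1.63, 1.42, 1.49 and 0.1804 CPM in left replicates 1 to 5 and at 0.581, 0.583, 2.35, 0.989 and 0.706 CPM in right replicates 1 to 5. Its left libraries separated fully, but right replicates 1 and 5 reached the level of right replicate 2. These are the smallest counts of the set, from 10 to 155 reads.

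Water and ion transport held both wide and narrow ranges. Aqp4, the water channel of astrocytic endfeet, stood at 3.36, 26.1, 36.6, 71.4 and 2.85 CPM in left replicates 1 to 5 and at 4.08, 14.7, 47.99, 45.2 and 3.94 CPM in right replicates 1 to 5. Slc4a4, a sodium bicarbonate cotransporter, was at 13.9 to 18.7 CPM in replicates 1 and 5 and 55.2 to 251 CPM in replicates 2 to 4. Slc7a11, the cystine-glutamate exchanger, was at 1.48 to 2.36 CPM and 5.402 to 23.2 CPM. The fold ranges of these 3 genes were 25.1, 17.99 and 15.7. Atp1b2, a beta subunit of the sodium pump, did not follow the set and hardly varied, at 499, 648, 547, 694 and 504 CPM in left replicates 1 to 5 and at 544, 569, 527, 498 and 546 CPM in right replicates 1 to 5. Its 1.39-fold range was the smallest of the 30, and its lowest library was right replicate 4, where Slc1a2 was at 976 CPM. Ttyh1, a membrane protein of the tweety family, separated by a small margin, at 7.56 to 8.95 CPM in replicates 1 and 5 and 10.3 to 18.7 CPM in replicates 2 to 4.

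The genes of the cytoskeleton, calcium binding and transcription all separated. Gfap, the intermediate filament protein of astrocytes, stood at 0.708, 9.81, 12.8, 12.8 and 0.848 CPM in left replicates 1 to 5 and at 0.7001, 5.89, 14.4, 18.1 and 0.971 CPM in right replicates 1 to 5. Sox9, a transcription factor of astrocytes, stood at 1.18, 13.7, 19.96, 21.1 and 1.101 CPM in left replicates 1 to 5 and at 1.91, 7.87, 25.8, 22.6 and 2.05 CPM in right replicates 1 to 5. S100b, a calcium-binding protein, was at 1.28 to 2.17 CPM in replicates 1 and 5 and 5.71 to 20.2 CPM in replicates 2 to 4. Unlike Slc1a2, which was highest in left replicate 4, Gfap was highest in right replicate 4 and Sox9 and S100b in right replicate 3.

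All 4 of the enzymes, the mitochondrial carrier and Ndrg2 separated, Aldoc and Ndrg2 with the narrowest ranges. Aldh1l1, a folate enzyme used to label astrocytes, stood at 0.303, 6.91, 10.1, 10.1 and 0.415 CPM in left replicates 1 to 5 and at 0.387, 4.08, 12.2, 14.7 and 0.515 CPM in right replicates 1 to 5, a 48.3-fold range. Aldoc, the glycolytic aldolase of astrocytes, stood at 59.3, 212, 278, 282 and 59.1 CPM in left replicates 1 to 5 and at 62.1, 127, 425, 316 and 59.5 CPM in right replicates 1 to 5, a 7.18-fold range. The 4 low libraries held Aldoc within 59.1 to 62.1 CPM, a 1.05-fold spread. Ndrg2, a protein of astrocytes with a hydrolase-like fold, was equally even there at 56.8 to 59.9 CPM, against 151 to 342 CPM in replicates 2 to 4. Slc25a18, a mitochondrial glutamate carrier, was at 0.658 to 0.898 CPM and 2.79 to 8.24 CPM.

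Of the surface receptors and the proteoglycan Gpc5, 3 of 4 genes separated. Gpc5 was at 0.253 to 0.337 CPM in replicates 1 and 5 and 1.98 to 7.599 CPM in replicates 2 to 4, a 30.1-fold range. Fgfr3, a fibroblast growth factor receptor, was at 1.44 to 1.89 CPM and 3.28 to 10.5 CPM. Ntsr2, a neurotensin receptor of astrocytes, stood at 0.8599, 7.02, 8.26, 9.02 and 0.595 CPM in left replicates 1 to 5 and at 1.46, 3.61, 8.69, 8.36 and 1.65 CPM in right replicates 1 to 5. The exception was F3, tissue factor, which starts blood coagulation and stood at 4.37, 5.42, 4.48, 7.95 and 4.06 CPM in left replicates 1 to 5 and at 4.93, 3.85, 7.24, 9.11 and 4.44 CPM in right replicates 1 to 5. Its lowest value was in right replicate 2 and its highest in right replicate 4, both outside the range of replicates 1 and 5.

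Secreted proteins held both wide and narrow ranges, and 4 of 5 separated. Sparcl1, a matrix protein that promotes synapse formation, stood at 13.2, 183, 275, 496 and 12.3 CPM in left replicates 1 to 5 and at 14.3, 94.2, 368, 303 and 13.4 CPM in right replicates 1 to 5, a 40.3-fold range. Apoe, the lipid carrier of the brain, was at 2.51 to 3.28 CPM in replicates 1 and 5 and 6.2 to 24.9 CPM in replicates 2 to 4. Clu, the chaperone clusterin, was at 10.7 to 11.9 CPM and 22.9 to 74.2 CPM. The fold ranges of Apoe and Clu were 9.92 and 6.93, far below that of Sparcl1. Htra1, a secreted serine protease, was at 0.2796 to 0.455 CPM and 1.23 to 5.802 CPM. Agt, the angiotensin precursor, stood at 6.17, 11.4, 11.4, 11.2 and 5.85 CPM in left replicates 1 to 5 and at 7.21, 5.59, 16.3, 10.97 and 7.11 CPM in right replicates 1 to 5. Right replicate 2 held its lowest value, below all 4 libraries of replicates 1 and 5, while the other 5 libraries of replicates 2 to 4 lay above them.

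Per length of exon, the order of the genes was led by Atp1b2, the member that varied least. In RPKM, the CPM of a gene divided by its exon length in kilobases, Atp1b2 had the highest median level over 10 libraries, 133, and ranked between 1 and 3 among the 30 genes in every library. Glul, Ndrg2, Aldoc, Sparcl1 and Slc1a2 followed with medians of 69.6, 55.8, 51.8, 47.2 and 26.2 RPKM. These 5 overlapped in range: Glul spanned 28.5 to 165 RPKM and Sparcl1 4.196 to 169 RPKM. At the low end stood Gja1, Gpc5 and Cldn10, with medians of 0.506, 0.4998 and 0.327 RPKM. The exon lengths come from GENCODE M21 and may not be those of the authors' annotation. In that annotation Fgfr3, Aldh1l1 and Ttyh1 share 13.9%, 13.4% and 6.6% of their exonic bases with other genes, and Glul, Gpc5, Slc25a18 and Slc1a2 at most 3.5%. Reads there may have been lost or assigned elsewhere.

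The make-up of the set's reads changed along with its total. Summed over 30 genes, the set held 841, 2424, 2938, 4100 and 828 CPM in left replicates 1 to 5 and 888, 1552, 3821, 3660 and 880.3 CPM in right replicates 1 to 5. In replicates 1 and 5, Atp1b2 alone made up 59.3% to 62.04% of that sum and Slc1a2 3.76% to 4.57%. In replicates 2 to 4, Atp1b2 made up 13.6% to 36.6% and Slc1a2 13.8% to 26.7%. Without Atp1b2 the sum was 324 to 344 CPM in replicates 1 and 5 and 983 to 3406 CPM in replicates 2 to 4. The share of Glul stayed between 10.9% and 15.2% in all 10 libraries.

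Relative to Slc1a2 in the same library, some members kept a near-constant proportion and others varied many-fold, with values in between. Sparcl1 was at 34.3% to 40.4% of the Slc1a2 CPM in replicates 1 and 5, against 31.1% to 45.3% in replicates 2 to 4. Slc6a11 was at 8.27% to 12.4% and 11.6% to 14.2%, Gja1 at 1.56% to 1.89% and 1.14% to 1.9%, and Gpc5 at 0.735% to 0.876% and 0.523% to 0.921%. Over all 10 libraries these 4 proportions varied 1.46-fold to 1.76-fold, while Slc1a2 itself varied 33.1-fold. In replicates 1 and 5, Gpc5 held only 14 to 20 reads and Gja1 35 to 42, so their proportions there are imprecise. Slc1a3 varied 1.66-fold against Slc1a2 and was the only member whose proportion was lower in all 4 libraries of replicates 1 and 5 than in any of the other 6. For 21 of the 29 members set against Slc1a2 the proportion was higher there than in any of the 6, and for 7 it overlapped. Aldoc, for example, was at 154% to 179.8% of Slc1a2 in replicates 1 and 5 and at 25.7% to 58.9% in replicates 2 to 4. Atp1b2 was at 1297% to 1649% and 51.1% to 265%, a 32.3-fold range.

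**Figure D2:**
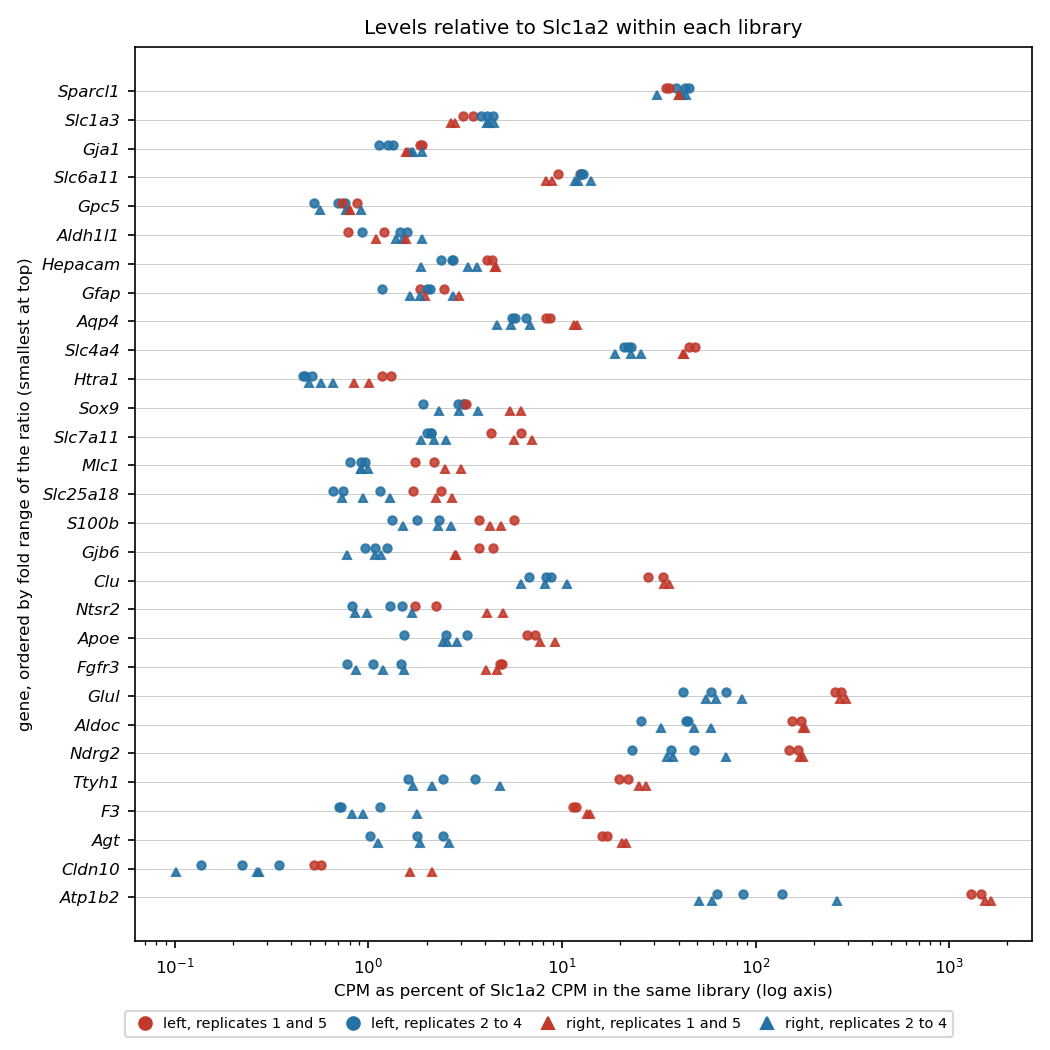
CPM of 29 genes as a percent of the Slc1a2 CPM in the same library (log axis), with circles for left and triangles for right libraries, red for replicates 1 and 5 and blue for replicates 2 to 4. At the top, Sparcl1, Slc1a3, Gja1, Slc6a11 and Gpc5 form narrow clusters, and at the bottom Atp1b2 spreads from 51.1% to 1649%.

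Markers of other cells outside the tagged population were also higher in replicates 2 to 4, and habenular markers were lower. The 14 oligodendrocyte markers summed to 109.6 to 124 CPM in replicates 1 and 5 and to 445 to 1816 CPM in replicates 2 to 4, and all 14 separated. Mbp, which encodes a myelin protein, was at 17.7 to 19.3 CPM in the first set of libraries and at 117 to 578 CPM in the second. The 8 thalamic neuron markers summed to 295 to 335 and 929 to 2492 CPM, and all 8 separated. The astrocyte genes were thus not alone in being higher there, which 24.3% of all genes tested also were without overlap. Rora and Ntng1, with the highest mean CPM of the thalamic list, were at 137 to 168 and 59.8 to 62.7 CPM in replicates 1 and 5, against 371 to 841 and 169 to 567 CPM in replicates 2 to 4, and Gbx2 had 0 reads in 1 library.

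Other lists summed to less, and 3 of these 4 were mostly higher in the same libraries. Oligodendrocyte precursor markers summed to 7.704 to 9.14 and 29.99 to 104 CPM (7 of 7 separated), with Olig1 at 3.07 to 3.46 and 12.02 to 40.1 CPM and Pdgfra at 1.12 to 1.64 and 5.16 to 22.7 CPM. Microglia markers summed to 7.21 to 9.04 and 16.2 to 41.1 CPM (9 of 12), with Csf1r at 0.217 to 0.353 and 2.56 to 13.2 CPM. Endothelial and pericyte markers summed to 4.94 to 8.15 and 20.5 to 48.2 CPM (10 of 12), with Pecam1 overlapping at 3.58 to 4.59 and 3.58 to 6.34 CPM and Flt1 at 0.0541 to 0.655 and 3.13 to 9.57 CPM. The microglial marker Aif1 and the endothelial markers Cldn5 and Cdh5 had 0 reads in at least 1 library. Markers of choroid plexus and ependyma, cells that line the ventricle beside the habenula, summed to only 5.09 to 6.29 and 7.72 to 19.4 CPM, and only 3 of 10 separated while 7 overlapped, near the 24.3% of all genes tested. In that list Foxj1 was at 1.602 to 2.56 and 4.85 to 8.94 CPM and Ttr overlapped at 1.01 to 1.698 and 0.261 to 2.98 CPM, while Kcnj13 had 0 reads in at least 1 library.

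The defining markers of the tagged cells were present in every library. Of 14 habenular neuron markers, 10 were lower in replicates 2 to 4 without overlap and none was higher, where 22.9% of all genes tested were lower. The sum of the 14 was 11603 to 12109 CPM in replicates 1 and 5 and 6066 to 10158 CPM in replicates 2 to 4. Nwd2 and Lrrc55, with the highest mean CPM of them, were at 2690 to 3065 and 2220 to 2389 CPM in the first and at 1668 to 2565 and 960.2 to 1825 CPM in the second. CPM are shares of a library. Less habenular RNA and more RNA of other kinds cannot be told apart in them, and neither was tested. The part of these other cell types in the levels of the astrocyte genes was not tested.

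**Figure D3:**
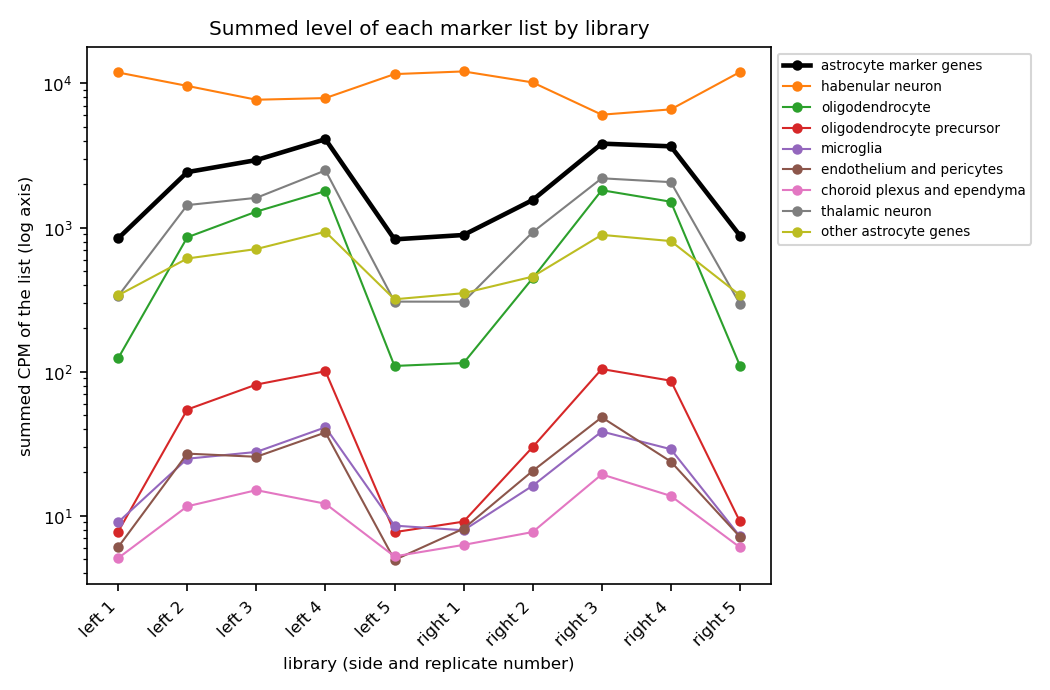
Summed CPM of each marker list (log axis) in the 10 libraries, left replicates 1 to 5 and then right replicates 1 to 5, with the 30 astrocyte marker genes as the thick black line. The astrocyte line runs from 828 to 4100 CPM and follows the other glial and thalamic lines. The habenular line at the top is lower in replicates 2 to 4 than in replicates 1 and 5.

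Between the sides the astrocyte genes did not differ beyond the spread between libraries. Slc1a2 had a mean of 456 ± 446 CPM over left and 428 ± 464 CPM over right libraries (SD, n = 5), and the fitted log2 fold change, left minus right, was 0.03, 95% interval -2.53 to 2.59. Gja1 was fitted furthest to the right, with 5.77 ± 5.499 CPM over left and 7.31 ± 7.82 CPM over right libraries (-0.40, 95% interval -2.84 to 2.05). Sparcl1 was fitted furthest to the left, with 196 ± 202 CPM over left and 159 ± 167 CPM over right libraries (0.25, 95% interval -2.34 to 2.84). In each of the 3 genes the SD was close to the mean, since every side held both low and high libraries. The edgeR quasi-likelihood test called 0 of the 30 genes at an adjusted p under 0.05, and it called 0.0% of all 16250 genes. At an unadjusted p under 0.05 it gave 0 of the 30 and 0.554% of all genes (90), and DESeq2 called 0 genes, with 141 at an unadjusted p under 0.05, none of them in the set. No member had its 5 left and 5 right libraries apart without overlap, which 0.215% of all genes tested showed.

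The intervals were narrowest for the 4 genes with the smallest fold ranges. Atp1b2 had the narrowest, at 0.08, 95% interval -0.16 to 0.33, with 578 ± 88.4 CPM over left and 537 ± 26.1 CPM over right libraries (SD, n = 5). F3, Ttyh1 and Agt came next, with log2 fold changes of -0.21, 95% interval -0.85 to 0.44, 0.01, 95% interval -0.73 to 0.74 and -0.07, 95% interval -0.81 to 0.68. A side difference of 2-fold thus lay outside the intervals of these 4 genes. It lay inside those of the other 26, among them Glul at -0.13, 95% interval -1.60 to 1.33 and Gfap at -0.16, 95% interval -2.48 to 2.15.

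The direction over the set rested on single libraries. Of the 30 fitted log2 fold changes, 13 were above 0, with a median of -0.04 beside -0.01 over all genes tested. Without left replicate 4 only 1 of 30 was above 0 (median -0.46), and likewise 1 without right replicate 1 or right replicate 5 (medians -0.28 and -0.29). Without right replicate 3 or right replicate 4, 29 of 30 were above 0 (medians 0.41 and 0.31), and without left replicate 1 or 5, 28 were (medians 0.17 and 0.17). Without left replicate 3 or right replicate 2, 4 of 30 were (medians -0.16 and -0.19), and without left replicate 2, 11 were (median -0.13). With replicates 2 to 4 alone the count was 16 and with replicates 1 and 5 of each side summed it was 15, and edgeR called 0 members in each of these fits. In limma-voom with sample weights all 30 were above 0, with a median of 1.54, and none passed the adjusted threshold. Of the libraries of replicates 2 to 5, those with the same number shared a sequencing lane, 1 left and 1 right per lane, so no lane gives a within-lane spread.

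Within replicates 1 and 5 alone, 3 astrocyte genes passed the threshold, all with more reads on the right. Cldn10 had 13 and 10 reads in left replicates 1 and 5 against 39 and 48 in the right ones, and edgeR's quasi-likelihood test gave a log2 fold change, left minus right, of -1.67 (SE 0.287, adjusted p = 0.0143). Ntsr2 had 51 and 33 reads against 98 and 112, with -1.09 (SE 0.199, adjusted p = 0.0164) in edgeR. Sox9 had 70 and 61 reads against 128 and 139, with -0.79 (SE 0.146, adjusted p = 0.0168) in edgeR. In this fit 12.8% of 15569 genes were called in either direction, and 7.06% of the 15569 (1099 genes) were called higher on the right, so 3 of 30 is near the background. At an unadjusted p under 0.05 there were 10 of 30 members and 32.1% of all genes. Replicates 1 and 5 of a side were unusually alike, as given above. The SEs and adjusted p-values of this fit therefore do not measure the spread between animals. The 3 calls are not read as a side difference of astrocytes.

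The other 27 members did not pass the threshold in those 4 libraries, and Glul, Aldoc and Slc1a2 had narrow intervals. The fitted log2 fold change was -0.01, 95% interval -0.11 to 0.09 for Glul, -0.04, 95% interval -0.15 to 0.07 for Aldoc and 0.09, 95% interval -0.05 to 0.22 for Slc1a2. Gjb6 ran the other way from Cldn10, at 0.62 (SE 0.178, adjusted p = 0.0524) in edgeR, and Aqp4 was at -0.37 (SE 0.106, adjusted p = 0.0537), neither past the threshold. Since the 2 libraries of a side are so alike, these intervals do not measure the spread between animals. Of 12 endothelial and pericyte markers, 9 passed the filter on low counts there. A gene with few reads on 1 side can pass that filter through the other side alone. Of the 9, 6 were called higher on the right and 1 higher on the left. The filter can shape this count, so it is not read as a side difference of these cells. Over all 15569 genes of this fit, 7.06% were called higher on the right and 893 genes higher on the left. The 12 markers summed to 6.07 and 4.94 CPM in the left libraries against 8.15 and 7.15 CPM in the right ones. Oligodendrocyte markers ran the other way, with 4 of 14 called higher on the left and 0 on the right (median log2 fold change 0.20). In each of the other 5 lists of cell type markers, at most 1 gene was called in each direction. The part of these cells in the values of Cldn10, Ntsr2 and Sox9 was not tested. In all 10 libraries the log2 fold changes of these 3 genes were -0.11, 0.07 and -0.13.

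**Figure D4:**
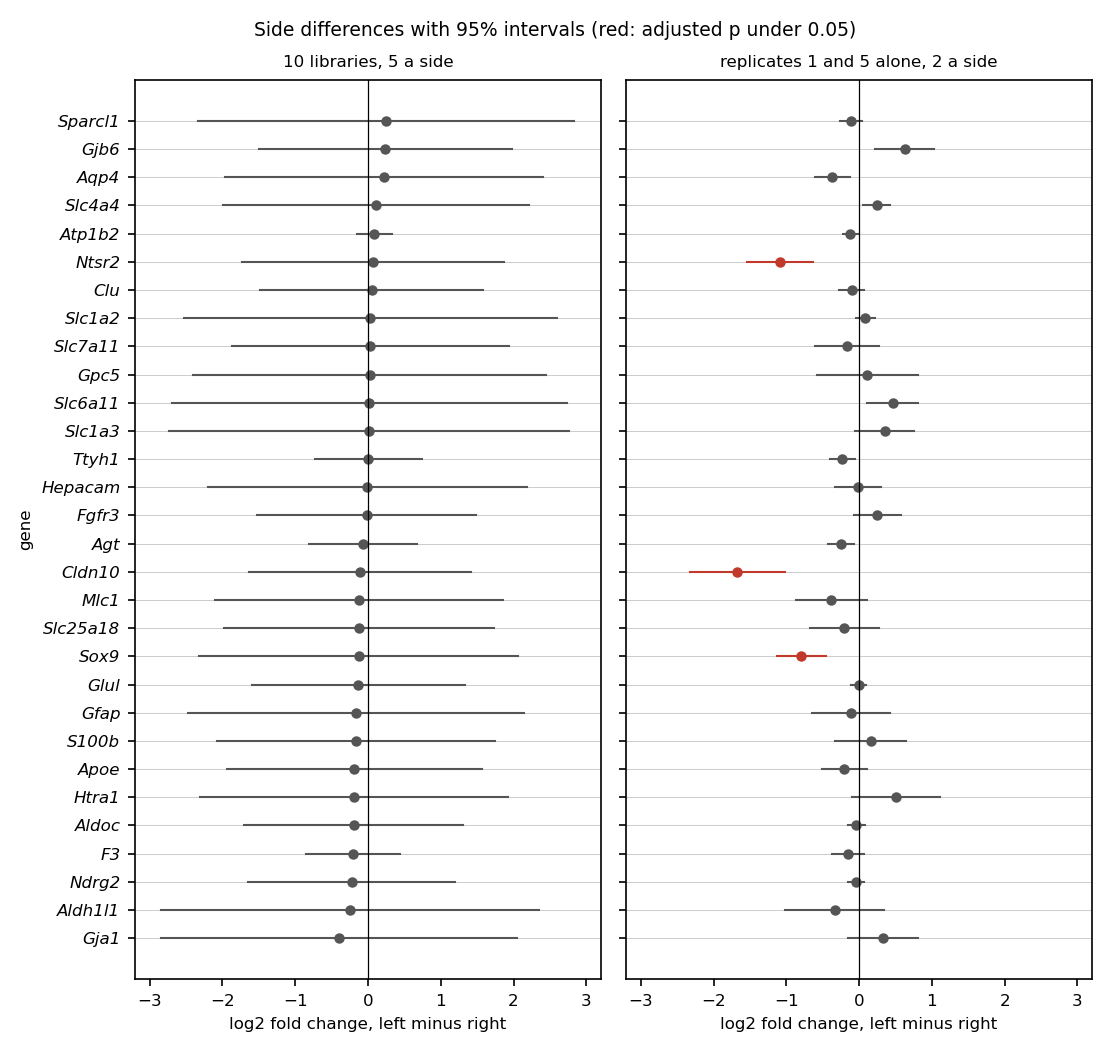
Fitted log2 fold change, left minus right, of each of the 30 genes with its 95% interval, over 10 libraries (left panel) and over replicates 1 and 5 alone (right panel), with red marking an adjusted p under 0.05. All intervals of the left panel cross 0, and in the right panel Cldn10, Ntsr2 and Sox9 lie below 0 in red.

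A longer list of 60 other genes of astrocytes gave a similar picture with more exceptions. Of these, 47 were higher in replicates 2 to 4 without overlap, 1 was lower and 12 overlapped. Among all genes tested, 24.3% were higher and 22.9% lower without overlap. The median fold range was 14.2, beside 2.07 over all genes tested. Kcnj10, the potassium channel of astrocytes, followed Slc1a2, at 5.74 to 7.59 CPM in replicates 1 and 5 and 29.3 to 156 CPM in replicates 2 to 4. Daam2, a formin-family gene, was at 1.97 to 2.15 and 9.96 to 45.5 CPM, and Nfia, a transcription factor of glial development, at 22.5 to 25.2 and 40.6 to 71.1 CPM. Thus 3 of the 5 genes with the highest mean CPM in the list separated, and the other 2 did not. Kcnn3, a calcium-activated potassium channel, was at 117 to 127 and 127 to 154 CPM, and Grm3, a metabotropic glutamate receptor, at 49.2 to 58.5 and 40.3 to 55.9 CPM.

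The extremes of that list lay beyond those of the 30 markers. Among the 48 of its genes that averaged 1 CPM or more, Bmpr1b, Slc14a1 and Slc39a12 had the widest fold ranges, 87.9, 80.3 and 69.5. Their lowest libraries held only 6, 5 and 8 reads, so these folds are imprecise. Bmpr1b is a receptor of bone morphogenetic proteins, Slc14a1 a urea transporter and Slc39a12 a zinc transporter. The narrowest ranges were those of Kcnn3, Id4 and Elovl2, at 1.31, 1.396 and 1.45. Id4, an inhibitor of transcription factors, was at 11.5 to 13.7 CPM in replicates 1 and 5 and 11.3 to 15.7 CPM in replicates 2 to 4. Elovl2, an enzyme of fatty acid elongation, was the gene that was lower, at 14.7 to 19.5 CPM in replicates 2 to 4 against 19.9 to 21.3 CPM. Between the sides edgeR called 0 of these 60 genes over all 10 libraries, with a median log2 fold change of -0.02. In replicates 1 and 5 alone it called 5 of 51 higher on the left and 4 higher on the right, with a median of 0.06. Of all 15569 genes of that fit, 893 were called higher on the left and 1099 higher on the right, 12.8% in either direction.

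**Figure D5:**
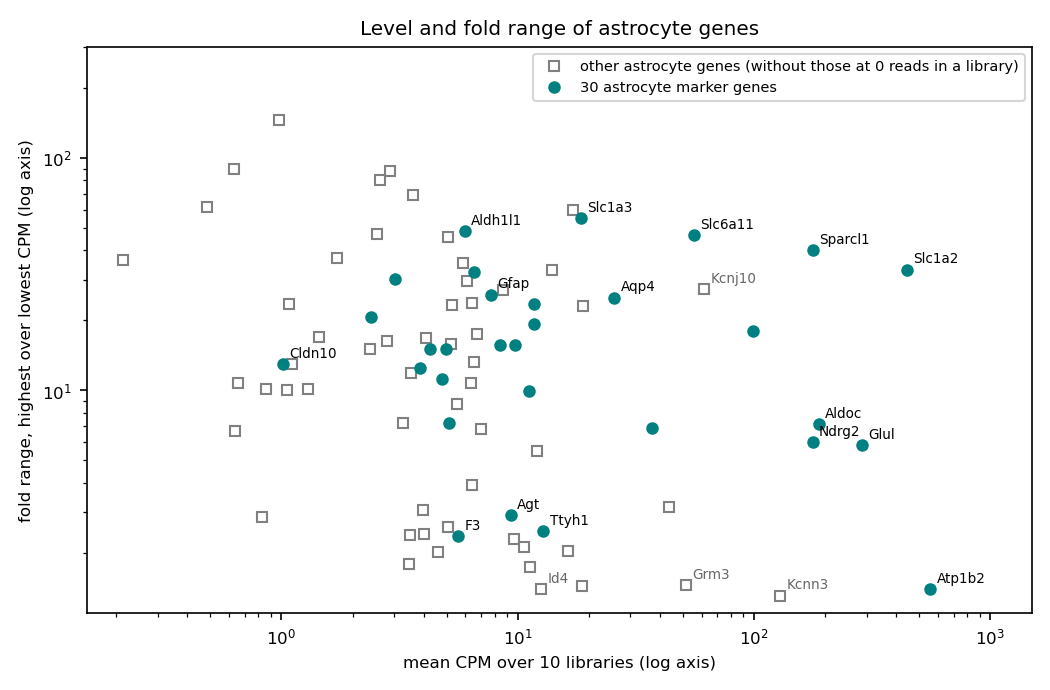
Fold range over 10 libraries (highest over lowest CPM, log axis) against mean CPM (log axis) for the 30 astrocyte marker genes (filled circles) and the other astrocyte genes (open squares, without those at 0 reads in a library). Atp1b2, the marker of highest mean CPM, lies at the bottom right at 1.39-fold, with Kcnn3 and Grm3 to its left, and Slc1a2 lies at the top right at 33.1-fold.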

How the data were processed

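The authors deposited 1 table of raw read counts per gene for each library, without normalization. Alignment and counting tools are named as STAR (2.0.0e) and HTSeq, on mm10, per the submitters' processing notes; annotation, strand setting and filters: not given in the sources used here. Every table has 32537 rows, and 6 that name no gene were left out. Groups came from the sample titles. CPM divide by total gene reads. Side differences were tested with edgeR 4.0.16 in R 4.3.3. Settings were TMM, filterByExpr with a minimum count of 10, robust quasi-likelihood F test, two-sided, side as the only term and Benjamini-Hochberg over 16250 genes. The procedure was also run on simulated counts. These lacked the split between replicates seen here, so that run does not measure its power in these libraries. Intervals are 95% and take the standard error from the F statistic. Other fits used DESeq2 1.42.0 and limma-voom 3.58.1 with sample weights. Gene names matched GENCODE M21 (GRCm38) for all 167 genes of the lists. All 30 members are named; of other lists the 2 of highest mean CPM (some are not reported here), and of the other astrocyte genes the 5 of highest mean CPM and the 3 widest and 3 narrowest ranges at a mean of at least 1 CPM. Members, lists, tests and the contrast of replicates were chosen with earlier results of these data known, and the promoter motifs and windows shown after the levels were seen. Genes with 0 reads in a library count as ranging over 10-fold. Plots were made in Python 3.11.15 (matplotlib 3.10.9).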

Additional observations from a re-analysis of the deposited data

Results flagged for a closer look

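Cldn10 in right replicate 3 stood at 2.35 CPM, apart from the other 4 right libraries, whose highest was 0.989 CPM, by more than Dixon's 95% limit for 5 values (0.71). It was the only such value among 62 series of 5 libraries examined, the 30 genes and their sum on each side. Chance flags about 1 in 20 series of independent values from a normal distribution. Most series here split between replicates 1 and 5 and replicates 2 to 4 and varied together, so that rate need not hold.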

How the results depend on the processing

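The count of genes called between the sides was 0 under both other scalings, no filter on low counts, DESeq2, limma-voom with sample weights, a threshold of 0.10, replicates 1 and 5 summed, replicates 2 to 4 alone and each of the 10 fits without a library, and so was the count of astrocyte genes. With replicates 1 and 5 alone, which were unusually alike within a side, these counts were 1992 and 3. With the replicate number as a block both were 0, with 297 genes at an unadjusted p under 0.05 and a median log2 fold change of the set of 0.01. Same-numbered libraries deviated together from their side means with correlations of 0.86, 0.81, 0.71 and 0.87 for numbers 1, 3, 4 and 5 but 0.096 for number 2, so the numbers were not taken to pair the libraries. Left replicates 2 and 4 correlated best with right replicate 3.

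The median log2 fold change of the 30 genes moved to 1.54 in limma-voom with sample weights, where all 30 were above 0 and 13 had an unadjusted p under 0.05, beside 14.5% of all genes (smallest adjusted p of the set = 0.285); the cause was not tested. Without single libraries it ranged from -0.46 to 0.41. Sparcl1 ranged from -0.44 to 0.84 without single libraries and was at -0.12 with replicates 1 and 5 alone. Gja1 ranged from -1.02 to 0.20, and was at 0.33 with replicates 1 and 5 alone and at 2.25 with sample weights. Over the fits without a library 29 of 30 members changed sign at least once.

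TMM and median-of-ratios scaling, and leaving out each library, gave 26 to 28 separated members, and no fold range moved by more than 9.005% under either scaling. Depth limits Cldn10, Gpc5, Aldh1l1 and Htra1, whose lowest libraries held 10, 14, 18 and 19 reads.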
